A study of Mus musculus with 14 samples.

Results

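Expression of collagen, laminin and other stromal matrix genes was followed in macrophage fractions from mouse mammary tumours. The members were the protein-coding genes whose symbol starts with Col, Lama, Lamb or Lamc and a digit, together with 18 named genes of the matrix, of stromal cells and of matrix signalling. Of 71 such rows among the 24556 genes in the table, 33 reached an unlogged value of 10, which is 3.32 on the authors' log2 scale, in at least 3 libraries, and 38 did not. The 33 were 17 genes with a collagen symbol, 5 laminin chains and 11 of the named genes. 1 of the 17, Col4a3bp, is no collagen: it encodes a ceramide transfer protein and carries the symbol for its binding to a collagen chain, which leaves 32 matrix and stromal genes.

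The fractions came from tumours grown by 4T1 cells, an established mouse mammary carcinoma line, in the fat pad of Balb/c mice. Before injection the cells had been kept for 5 days with the vehicle DMSO or with 5 µM GSK269962A, a kinase inhibitor, and DMSO and GSK below name this pre-treatment of the tumour cells. On day 8 after injection each pre-treatment gave 3 libraries, and on day 14 each gave 4. F4/80-positive cells were enriched on magnetic columns in a pair of rounds, and RNA was sequenced in bulk. The labels name no treatment of the mice, no age and no second tumour line, and they do not say whether each library is a separate mouse, so p-values measure the spread between these samples, which may be technical.

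The extracellular matrix is the protein scaffold outside cells. Fibrillar collagens I, III and V form the fibres of connective tissue, whereas collagen IV, laminins and perlecan (Hspg2) build basement membranes, the thin sheets under epithelium and around vessels. A laminin is a trimer of an alpha, a beta and a gamma chain, and a collagen IV molecule is a trimer of alpha chains. Fibroblasts, pericytes, endothelium and carcinoma cells make most of these proteins, while macrophages are known for secreting fibronectin (Fn1), for remodelling matrix and for taking up collagen.

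The start regions of 5 of the genes that were lower on day 14 are shown, since Col4a1 and Col4a2 both fell in GSK tumours and are read in opposite directions from 1 shared region, and Hspg2, Acta2 and Ccn1 were read from regions of their own. Each runs from 250 bases before to 50 bases after the start site, 5′ to 3′ on the gene's strand, as RefSeq gives it for GRCm38.p6. Capitals mark the letters GGGCGG (the GC box), GGAATG (the core bound by TEAD factors) and TATAAA, on either strand.
Col4a1, chr8:11312777-11313076, minus strand: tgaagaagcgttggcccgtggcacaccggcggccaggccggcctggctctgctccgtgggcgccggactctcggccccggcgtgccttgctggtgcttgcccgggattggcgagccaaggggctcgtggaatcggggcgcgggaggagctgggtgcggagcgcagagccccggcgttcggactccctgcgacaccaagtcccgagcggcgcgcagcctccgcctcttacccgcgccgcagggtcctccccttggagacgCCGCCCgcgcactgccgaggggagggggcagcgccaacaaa
Col4a2, chr8:11312555-11312854, plus strand: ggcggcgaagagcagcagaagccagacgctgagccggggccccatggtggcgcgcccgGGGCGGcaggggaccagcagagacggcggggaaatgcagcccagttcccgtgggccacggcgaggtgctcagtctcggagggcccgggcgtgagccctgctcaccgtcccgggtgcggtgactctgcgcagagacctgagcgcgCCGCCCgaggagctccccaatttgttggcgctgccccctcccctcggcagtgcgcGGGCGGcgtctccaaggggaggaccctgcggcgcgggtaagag
Hspg2, chr4:137468553-137468852, plus strand: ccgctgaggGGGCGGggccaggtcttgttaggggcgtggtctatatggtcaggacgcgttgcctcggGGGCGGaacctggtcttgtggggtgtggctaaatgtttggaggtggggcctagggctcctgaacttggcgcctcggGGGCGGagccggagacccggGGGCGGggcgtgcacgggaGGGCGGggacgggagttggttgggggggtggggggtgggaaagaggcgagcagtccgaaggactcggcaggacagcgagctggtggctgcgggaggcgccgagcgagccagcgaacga
Acta2, chr19:34255324-34255623, minus strand: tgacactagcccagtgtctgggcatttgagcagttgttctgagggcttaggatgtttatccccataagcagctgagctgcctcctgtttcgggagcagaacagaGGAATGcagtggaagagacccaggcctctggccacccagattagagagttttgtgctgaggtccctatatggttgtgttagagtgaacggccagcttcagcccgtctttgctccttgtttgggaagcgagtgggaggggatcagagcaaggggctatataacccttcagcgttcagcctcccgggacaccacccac
Ccn1, chr3:145649936-145650235, minus strand: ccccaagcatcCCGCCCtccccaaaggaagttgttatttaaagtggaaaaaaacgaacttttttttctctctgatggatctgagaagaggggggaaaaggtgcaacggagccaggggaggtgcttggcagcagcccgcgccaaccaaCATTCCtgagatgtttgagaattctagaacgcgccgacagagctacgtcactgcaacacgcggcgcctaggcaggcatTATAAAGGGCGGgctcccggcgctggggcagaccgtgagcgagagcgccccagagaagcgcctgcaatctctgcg
Col4a1 (ENSMUSG00000031502) and Col4a2 (ENSMUSG00000031503) lie head to head on chromosome 8, their annotated exons overlap by 22 bases, and the printed windows share 78 bases (chr8:11312777-11312854). Their capitals after the start sites are the same GC box seen from both strands. Promoters of 24 of the 33 genes were matched in the RefSeq table, with 27 windows, and those of the rest, among them Col14a1, Col1a1, Fn1 and Lamc1, were not. A GC box stood in 66.7% of the 27 windows and in 35.7% of all 32851 windows, GGAATG in 18.5% and 14.7%, and TATAAA in 11.1% and 13.6%. Ccn1, which encodes a secreted matricellular protein and is a known target of YAP with TEAD factors, held all 3 motifs, and Acta2 held GGAATG alone. The AP-1 motif TGANTCA stood in 0 of the 27 windows against 7.81% of all windows, and the CArG box, to which serum response factor binds, in 0 against 1.63% in its strict form, while forms with a base off, as are known from the Acta2 promoter, were not searched. These counts describe letters in a window and not binding.

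Fibronectin stood far above the other genes. Per kilobase of exon, which subtracts the log2 of the exon length from the log2 value, the highest were Fn1 at 9.92, Sparc at 5.52, Col4a2 at 4.70, Acta2 at 4.57, Col4a1 at 4.52, Thbs1 at 4.28, Col14a1 at 4.23, Lamc1 at 3.75 and Mgp at 3.59. Fn1 ranked 451 among 11870 tested genes with a length, and 3 of the 33 genes, Fn1, Sparc and Col4a2, lay above the median of those genes, 4.70 per kilobase. The median of the 33 was 2.05. The values of Acta2, Col4a1 and Col4a2 crossed between libraries, so their order is not set beyond their spread.

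Many genes that define stromal cells failed the minimum. Pdgfra, the receptor that marks fibroblasts, lay between 0.98 and 1.22 in the 14 libraries. Decorin (Dcn) lay between 1.00 and 1.25 and lumican (Lum) between 1.84 and 2.40, both collagen-binding proteoglycans of fibroblasts. Tagln, an actin-binding protein of smooth muscle, lay between 1.84 and 2.36, and the YAP target Ccn2 between -0.49 and -0.38. So 33 of the 38 genes were under the minimum in every library, and Col1a1, Col1a2 and Col3a1 passed while Pdgfra, Dcn and Lum did not. The lowest value in the whole table is -2.07. Among laminins, Lama1, Lama2, Lama3 and Lama4 were under the minimum throughout, with Lama3 between -1.86 and -1.79, so Lama5 was the only alpha chain that passed. The nidogens, which link laminin to collagen IV, were under it too, with Nid1 between 2.20 and 2.60 and Nid2 between 2.41 and 2.86.

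Near the minimum, the choice of members was close. Just inside were Ccn1 and Postn, each at or above 3.32 in 6 libraries, and Lama5 in 11. Apart from DMSO day 14 library 3 at 3.40, the libraries of Ccn1 were all of day 8. Apart from DMSO day 8 library 3 at 3.58, those of Postn were all of GSK. Both thus passed mainly through the groups where they were high. Just outside were Lamb3 and Col5a3, each in 2, and Col4a3, Col13a1 and Col20a1, each in 1. In all 14 libraries 27 of the 33 were at or above the minimum, and Ccn1, Postn, Lama5, Col6a2, Col25a1 and Col27a1 were not. Fbn1 (fibrillin-1) shares 20.1% of its exon bases with an antisense gene, and without strand information its values are uncertain.

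All 14 fractions carried the macrophage markers at high level, with Csf1r between 11.20 and 12.53 and Adgre1, which encodes F4/80, between 8.93 and 10.31. Correlations between libraries of a group were 0.967 to 0.993, and the depth behind the values is unknown, as the table holds no counts. In each library either AY036118 or Gm42418, overlapping ribosomal RNA genes, was high and the other low. AY036118 was the high one in 1 of 3 DMSO and 2 of 3 GSK libraries on day 8, and in 2 of 4 DMSO and 4 of 4 GSK libraries on day 14, so this split moves with the groups and its part in the results was tested as far as the libraries allow, beside the counts.

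**Figure D1:**
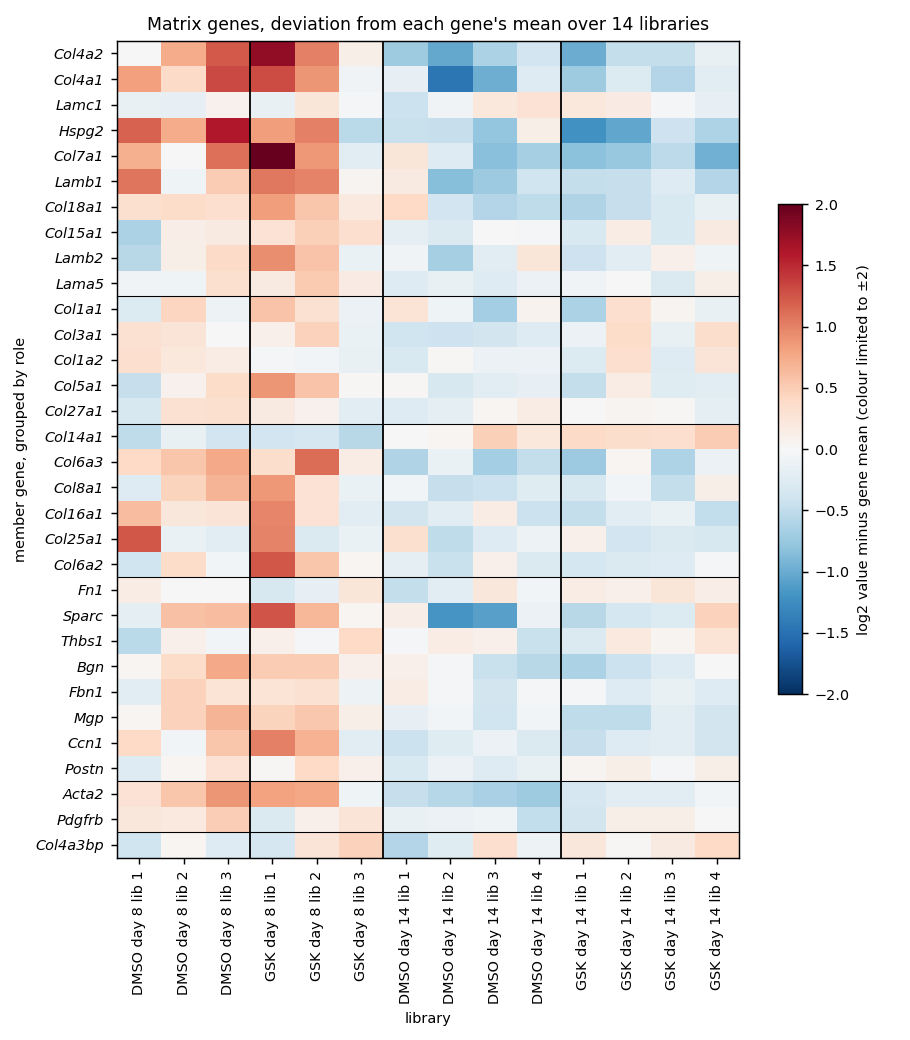
Log2 value of 32 of the 33 genes minus its mean over the 14 libraries, with libraries as columns by group and genes as rows by role, red above and blue below the mean. Most basement membrane rows are red in the day 8 columns and blue in the day 14 columns, with GSK day 8 library 3 paler than the other day 8 libraries, and Col14a1 shows the opposite colours.

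Between day 8 and day 14 the basement membrane genes Col4a1 and Hspg2 and the stromal genes Acta2 and Col6a3 fell in both pre-treatments, and Col4a2, Lamb1, Col7a1 and Col18a1 fell in GSK. In DMSO tumours 4 of the 33 genes were lower and 0 were higher by limma (adjusted p under 0.05), against 0.522% lower and 0.303% higher among all 11886 genes tested. In GSK tumours 12 were lower and 1 was higher, against 3.95% and 3.05%. Median changes were -0.51 in DMSO and -0.60 in GSK, while the medians of all tested genes were 0.00 and 0.01. In bulk samples fewer cells of a type and less RNA per cell cannot be told apart, and this holds for every change below.

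Collagen IV is the network collagen of basement membranes. Col4a1 stood at 8.24, 7.80 and 8.74 in the DMSO day 8 libraries and at 7.25, 5.97, 6.44 and 7.16 in the DMSO day 14 libraries. In GSK it stood at 8.72, 8.29 and 7.34 on day 8 and at 6.71, 7.15, 6.83 and 7.21 on day 14. In both pre-treatments every day 14 library lay below every day 8 library, by a narrow gap in GSK through library 3 of day 8. The change was -1.56 in DMSO (SE 0.33, limma adjusted p = 0.0377), which is 2.94-fold lower, and -1.15 in GSK (SE 0.33, limma adjusted p = 0.0480), which is 2.21-fold lower. Col4a2 fell from 8.39 ± 0.83 (SD, n = 3) to 6.90 ± 0.35 (SD, n = 4) in GSK, by 1.49 on the log2 scale (SE 0.33, limma adjusted p = 0.0190). In DMSO it was 8.09 ± 0.62 (SD, n = 3) on day 8 and 6.74 ± 0.26 (SD, n = 4) on day 14, a difference of -1.35 (SE 0.33) that missed the threshold (limma adjusted p = 0.0749), without overlap between the days.

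Hspg2 encodes perlecan, the heparan sulfate proteoglycan of basement membranes. It stood at 7.09, 6.65 and 7.52 in DMSO on day 8 and at 5.47, 5.46, 5.15 and 6.03 on day 14, with no overlap. GSK libraries gave 6.75, 6.93 and 5.38 on day 8 and 4.71, 4.87, 5.50 and 5.30 on day 14, where the third day 8 library lay among those of day 14. The changes were -1.56 in DMSO (SE 0.33, limma adjusted p = 0.0375) and -1.26 in GSK (SE 0.33, limma adjusted p = 0.0339), 2.95-fold and 2.39-fold lower.

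Laminin chains did not move as 1 group. Lamb1, a beta chain of many laminins, stood at 6.42, 6.35 and 5.41 in GSK on day 8 and at 4.88, 4.90, 5.10 and 4.77 on day 14, without overlap. It fell by 1.15 in GSK (SE 0.29, limma adjusted p = 0.0316) and was -0.94 in DMSO (limma adjusted p = 0.136). Lamc1, the gamma chain of most laminins, had changes of 0.08 in DMSO and 0.03 in GSK, and its group means lay between 6.73 and 6.84, within the spread of the libraries. For Lamc1 the 95% interval of the change ran from -0.31 to 0.46 in DMSO and from -0.36 to 0.41 in GSK.

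The other basement membrane collagens that passed were Col7a1, the anchoring fibril collagen that ties epithelium to the tissue below, and Col18a1, the source of endostatin. Col7a1 stood at 7.53, 6.28 and 5.19 in GSK on day 8 and at 4.58, 4.65, 4.88 and 4.44 on day 14, a change of -1.70 (SE 0.40, limma adjusted p = 0.0254). Col18a1 fell by 0.91 in GSK (SE 0.22, limma adjusted p = 0.0262). In DMSO neither passed, with changes of -0.99 and -0.61. In all, 7 of the 11 basement membrane genes were lower in GSK and 2 of 11 in DMSO, with median changes of -1.15 and -0.94. Over all tested genes 3.95% were lower in GSK and 0.522% in DMSO.

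In limma none of the 5 fibrillar collagens passed in either pre-treatment, and their medians were -0.17 in DMSO and -0.03 in GSK. At an unadjusted p under 0.05 there were 2 in DMSO and 1 in GSK, against 1828 and 2954 of all 11886 tested genes. Col1a1, the main chain of collagen I, was 5.88 ± 0.36 (SD, n = 3) on day 8 and 5.75 ± 0.41 (SD, n = 4) on day 14 in DMSO, and 6.11 ± 0.35 (SD, n = 3) and 5.76 ± 0.41 (SD, n = 4) in GSK. Its differences were smaller than the spread between libraries. Col3a1, which forms fibres with collagen I, had a change of -0.55 in DMSO (SE 0.18, limma adjusted p = 0.148), with no overlap between the days, and of -0.03 in GSK.

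The other collagens went both ways. Col6a3, a chain of the beaded filaments of collagen VI, stood at 5.47, 5.63 and 5.82 in DMSO on day 8 and at 4.46, 4.93, 4.39 and 4.59 on day 14. It fell by 1.05 in DMSO (SE 0.24, limma adjusted p = 0.0489) and by 0.90 in GSK (SE 0.24, limma adjusted p = 0.0349), in both without overlap. Col6a2 fell by 0.85 in GSK (SE 0.23, limma adjusted p = 0.0393), whereas the third chain, Col6a1, was under the minimum. Col14a1 (chr15:55307750-55520803), a collagen that sits on the surface of fibrils, was the 1 gene that rose. It stood at 6.66, 6.70 and 6.48 in GSK on day 8 and at 7.43, 7.39, 7.37 and 7.54 on day 14. Its change was 0.82 in GSK (SE 0.15, limma adjusted p = 0.00760), 1.76-fold higher. In DMSO it was 6.53, 6.89 and 6.65 on day 8 and 7.04, 7.08, 7.52 and 7.24 on day 14, also without overlap, and the change of 0.53 did not pass (SE 0.15, limma adjusted p = 0.105).

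Among the 8 matrix glycoproteins 2 were lower in GSK and 0 in DMSO, against 3.95% and 0.522% of all tested genes. Mgp, matrix Gla protein, an inhibitor of calcification, stood at 4.28, 4.38 and 3.95 in GSK on day 8 and at 3.33, 3.33, 3.62 and 3.46 on day 14, a fall of 0.77 (SE 0.16, limma adjusted p = 0.0147). Ccn1 fell by 0.81 in GSK (SE 0.22, limma adjusted p = 0.0385), from 4.52, 4.21 and 3.29 on day 8 to 3.06, 3.26, 3.30 and 3.15 on day 14. The third day 8 library overlapped with day 14. Ccn1 passed the minimum mainly through day 8 libraries, so this fall is not independent of the filter. Biglycan (Bgn), a small proteoglycan, was at -0.71 and just missed (limma adjusted p = 0.0532). Fn1 did not pass in any comparison: its 14 values lay between 12.98 and 13.70, and its changes were -0.18 in DMSO and 0.24 in GSK (SE 0.17 each). Sparc, which binds collagen, was -0.90 in DMSO and -0.84 in GSK (SE 0.35 each) and did not pass in either, with overlap between the days. Thbs1, thrombospondin-1, was 0.11 and -0.09.

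Of the contractile and mural cell genes, Acta2 and Pdgfrb reached the minimum. Acta2, smooth muscle actin, which marks myofibroblasts and mural cells, was 6.29 ± 0.29 (SD, n = 3) in DMSO on day 8 and stood at 5.24, 5.14, 5.06 and 5.00 on day 14. It fell by 1.18 in DMSO (SE 0.20, limma adjusted p = 0.0168), 2.26-fold, with no overlap. In GSK the values were 6.51, 6.47 and 5.63 on day 8 and 5.37, 5.50, 5.48 and 5.66 on day 14, where the third day 8 library lay within the day 14 range, and the fall was 0.70 (SE 0.20, limma adjusted p = 0.0466). Pdgfrb, the pericyte receptor for platelet-derived growth factor, was -0.51 in DMSO (limma adjusted p = 0.161) and -0.05 in GSK.

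**Figure D2:**
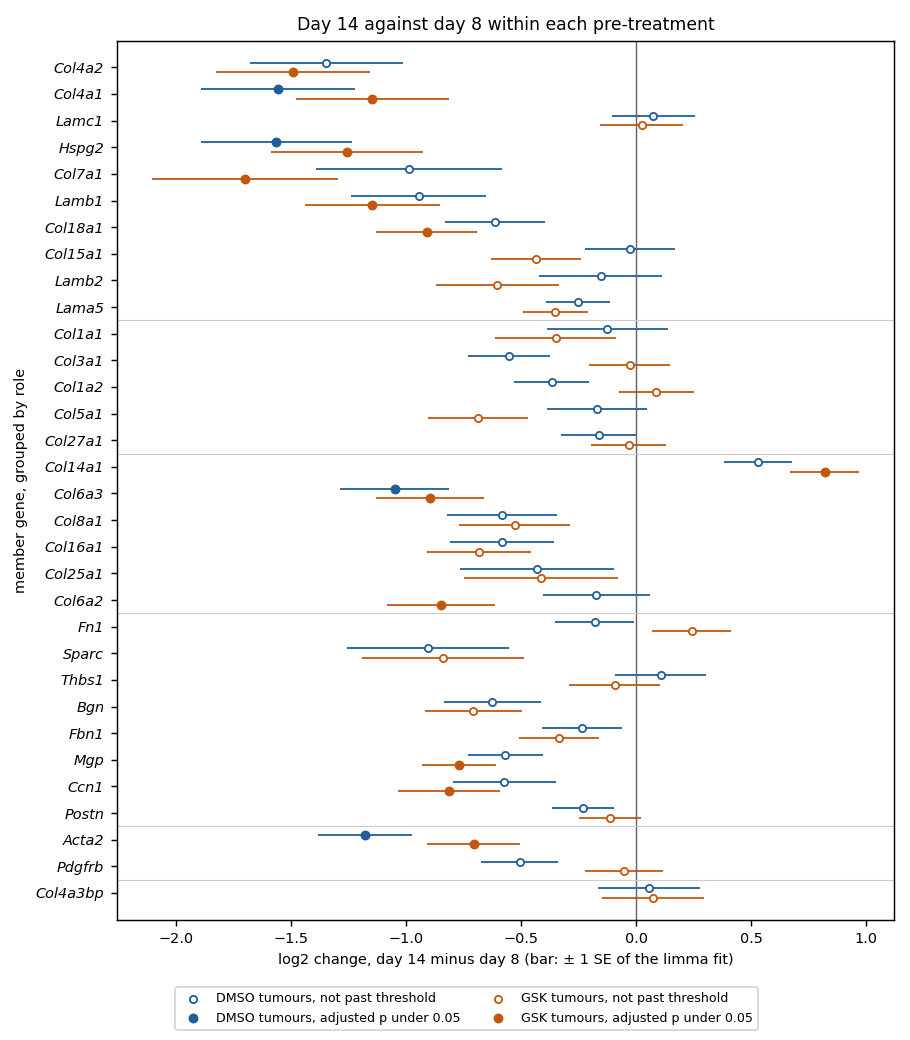
Log2 change from day 8 to day 14 in DMSO tumours (blue) and GSK tumours (orange) for 32 of the 33 genes, grouped by role, with bars of ± 1 SE of the limma fit and filled points for an adjusted p under 0.05. Among basement membrane genes Hspg2 lies at -1.56 in DMSO and Col7a1 at -1.70 in GSK, the fibrillar collagens lie closer to 0, and Col14a1 is the filled point to the right of 0.

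The comparisons of the days in DMSO and in GSK share no library, only the fit's estimate of the spread. The change was negative in both for 27 of the 33 genes, positive in both for 3, and of opposite sign for Fn1, Col1a2 and Thbs1. Taken singly, 29 of the 33 changes were negative in DMSO and 28 in GSK, against 5876 and 5776 of all 11886 tested genes. All 4 genes called lower in DMSO were among the 12 called lower in GSK. How often signs and calls were shared between the pre-treatments over all tested genes was not counted. In the test of the difference between the pre-treatments' changes 0 of 33 passed, against 0.00841% of all genes, and the lowest limma adjusted p was 0.600. At an unadjusted p under 0.05 there were 0 of 33, against 987 of all 11886 tested genes. So the larger count in GSK is not shown to be a larger change. Without overlap between the days, 13 of 33 were lower in DMSO and 12 of 33 in GSK, against 5.98% and 15.2% of all tested genes. In each pre-treatment 1 was higher without overlap, Col14a1, against 4.10% of all tested genes in DMSO and 15.1% in GSK.

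**Figure D3:**
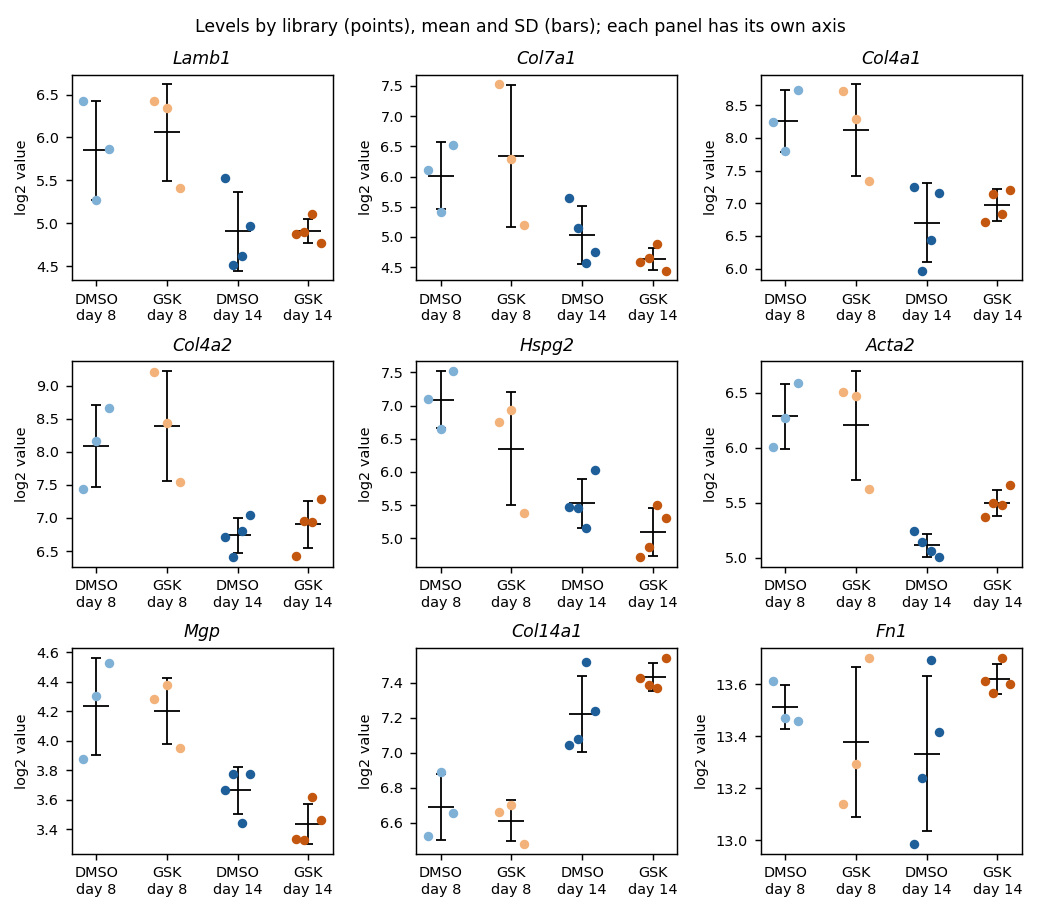
Log2 values of 9 genes in every library (points) by group, with the group mean and SD (bars), each panel on its own axis that does not start at 0. Hspg2 falls from a range of 5.38 to 7.52 on day 8 to one of 4.71 to 6.03 on day 14, while all Fn1 values lie between 12.98 and 13.70.

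Day 8 libraries differed among themselves. DMSO library 1 was the lowest of the 6 day 8 libraries for 15 of the 33 genes and GSK library 3 for 12, and GSK library 1 was the highest for 12. GSK library 3 was the lowest of the 6 for each of Col4a1, Hspg2, Acta2 and Col6a3. Without DMSO day 8 library 3 the count of genes past the threshold in DMSO was 0, without GSK day 8 library 1 or library 2 the count in GSK was 2, and without GSK day 8 library 3 it was 17. Calls over all tested genes moved with these counts. They were 62 lower and 36 higher in DMSO with all libraries and 24 in all without DMSO day 8 library 3. In GSK they were 470 lower and 363 higher with all libraries, and 112, 237 and 1218 in all without GSK day 8 library 1, 2 and 3. The DMSO count was 1 without DMSO day 8 library 1, DMSO day 14 library 2 or 3, or any 1 of the GSK day 14 libraries, and 6 without GSK day 8 library 1 or 3. The GSK count was 3, 5, 8 and 4 without GSK day 14 library 1, 2, 3 and 4. A term for the ribosomal RNA split gave counts of 4 in DMSO and 6 in GSK. The libraries with AY036118 high were 1 on day 8 and 2 on day 14 in DMSO, and 2 and 4 in GSK. In them the median change was -0.40 in DMSO, through that 1 day 8 library, and -0.40 in GSK, where 3 genes passed. Those with Gm42418 high were 2 on each day in DMSO, where 0 passed and the median was -0.49. In GSK none of day 14 had Gm42418 high.

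Markers of other cells moved with these changes. The 4T1 epithelium list, of which 11 of 15 genes were tested, had a mean log2 value per library of 5.50 to 6.19 in DMSO and 5.56 to 6.80 in GSK on day 8, and of 4.99 to 5.38 and 4.79 to 4.93 on day 14. Of its genes 7 of 11 were lower in GSK, led by Krt18 with a change of -2.95, and 1 of 11, Cldn7, was lower in DMSO. The shares over all tested genes were 3.95% and 0.522%. Within day 8 of GSK, library 1 was the highest and library 3 the lowest for this list, at 6.80 and 5.56. With the list's mean as a covariate 0 of the 33 genes passed in either pre-treatment and the medians were -0.27 in DMSO and 0.17 in GSK. In that fit 1 of all 11886 genes passed for GSK and 2 for DMSO. The list's mean did not overlap between the days in either pre-treatment. The covariate therefore largely follows day, and this fit cannot tell the part of these cells from time.

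Of the vessel and pericyte markers, Rgs5 moved in both pre-treatments. The pericyte gene Rgs5 fell by 1.52 in DMSO and by 1.25 in GSK, while of the 11 pericyte and smooth muscle markers only Rgs5 and Notch3 were tested, with a mean of 7.03 to 7.69 and 6.53 to 7.24 on day 8 and of 5.98 to 6.73 and 6.06 to 6.29 on day 14. The endothelial list (11 of 11 tested) had means of 5.79 to 5.96 and 5.49 to 5.99 on day 8 and of 5.33 to 5.58 and 5.38 to 5.54 on day 14 in DMSO and GSK. In it 1 gene, Pecam1, passed as lower in GSK, and 0 in DMSO. Of the fibroblast list 8 of 15 were tested, and Thy1 was under the minimum. Its means were 5.41 to 5.66 and 5.34 to 5.73 on day 8 and 5.14 to 5.44 and 5.20 to 5.40 on day 14. In GSK Pdpn passed as lower, by 0.80, and Mmp2 as higher, by 0.61, and in DMSO 0 passed. Macrophage markers (12 of 12 tested) had means of 11.16 to 11.42 and 11.23 to 11.54 on day 8 and of 11.21 to 11.88 and 11.71 to 11.98 on day 14. By limma 1 of them, Lyz2, passed as higher in GSK, by 1.26. Changes were positive for 9 of the 12 in DMSO and 11 in GSK. Without overlap between the days 1 was higher in DMSO and 8 in GSK, against 4.10% and 15.1% of all tested genes. The part of these cells in the matrix changes was not tested, since the epithelium covariate largely follows day.

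**Figure D4:**
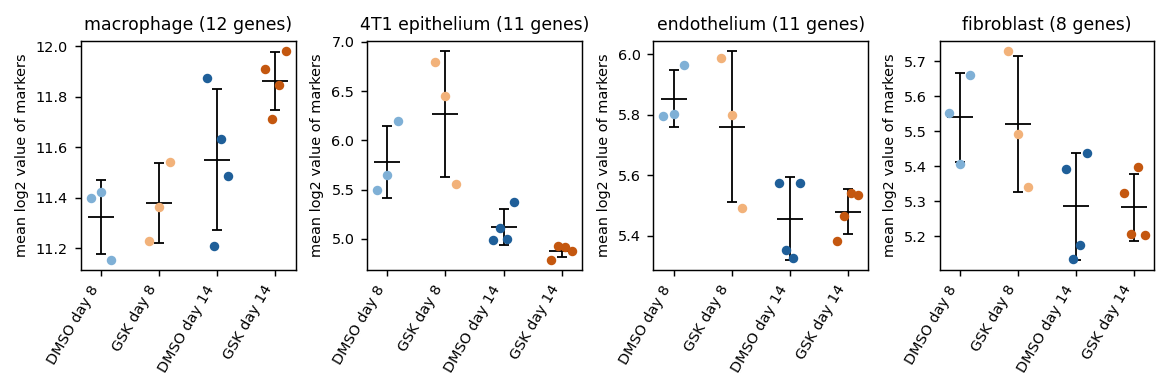
Mean log2 value of the tested markers of macrophages (12 genes), 4T1 epithelium (11), endothelium (11) and fibroblasts (8) in each library (points), with the group mean and SD (bars), each panel on its own axis that does not start at 0. Epithelial means lie between 5.50 and 6.80 on day 8 and between 4.79 and 5.38 on day 14, and endothelial means are lower on day 14 except for GSK day 8 library 3 at 5.49.

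The comparison of GSK with DMSO on each day asks how the pre-treatment of the tumour cells bears on the fractions, and none of the 33 genes passed in it. By limma 0 of 33 passed on day 8, on day 14 and in the mean of both days, against 0.194%, 10.8% and 14.5% of all genes tested. At an unadjusted p under 0.05 there were 3, 2 and 3 of the 33, against 1939, 3240 and 3637 of all 11886 genes tested. The 95% interval of the difference lay within 2-fold either way for 26 of 33 genes on day 8. It did so for 29 on day 14 and for 32 in the mean of both days. For those genes a difference beyond 2-fold in the deposited values lies outside the interval and a smaller one may not. If the transformation behind those values shrinks low ones, which is not known, the RNA of low genes may differ by more. Of the 11 tested epithelium markers Krt14 passed as higher in GSK on day 8, by 1.37, and over both days, by 0.68. Differences were positive for 10 of the 11 on day 8 and negative for 9 on day 14. With the list's mean as a covariate 0 of the 33 genes passed on day 8, and 0 of all 11886 tested genes. The median difference of the 33 was -0.13 in that fit and 0.09 without the covariate. Counts from that fit for day 14 and for both days are given below, and the part of these cells was not tested otherwise.

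On day 14 Col3a1 had the smallest p-value. It stood at 4.78, 4.78, 4.82 and 4.93 in DMSO and at 5.07, 5.55, 5.04 and 5.54 in GSK, so every GSK library was higher. The difference was 0.47 (SE 0.16, 95% interval 0.12 to 0.82) with a limma adjusted p of 0.0736. Acta2 was also higher in every GSK library, at 5.37 to 5.66 against 5.00 to 5.24, by 0.39 (SE 0.19, limma adjusted p = 0.192). So was periostin (Postn), a matricellular protein of activated fibroblasts, by 0.27 (SE 0.13, limma adjusted p = 0.176). Postn passed the minimum mainly through GSK libraries, so its difference is not independent of the filter. In all, 1 gene was lower and 3 were higher without overlap, against 22.0% of all tested genes in either direction. Fn1 differed by 0.29 (SE 0.16, limma adjusted p = 0.256).

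Where only the day 14 libraries were fitted, so that the day 8 spread did not enter, 3 genes passed, among them Col3a1 and Acta2 as higher, where 15.8% of all tested genes passed. With the epithelium mean as a covariate 1 passed on day 14, Acta2 as higher, against 4.81% of all tested genes. In the mean of both days 2 passed with it, among them Hspg2 as lower, against 17.3%. So these counts of the 33 genes are near or below the share over all genes.

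On day 8 the smallest p-values belonged to Col6a2 at 0.64 (SE 0.25, limma adjusted p = 0.222), Col15a1 at 0.47 (SE 0.21, limma adjusted p = 0.282), Col5a1 at 0.49 (SE 0.23, limma adjusted p = 0.305) and Hspg2 at -0.74 (SE 0.35, limma adjusted p = 0.313). Col15a1, a basement membrane zone collagen, was higher in every GSK library and Col1a2 lower in every one, against 16.2% of all tested genes without overlap in either direction. Over both days Hspg2 had a mean difference of -0.59 (SE 0.23, limma adjusted p = 0.0996), followed by Col4a3bp at 0.35, Postn at 0.21 and Col15a1 at 0.26. Collagen IV did not pass between the pre-treatments: Col4a1 differed by -0.14 on day 8 and 0.27 on day 14, and Col4a2 by 0.31 (95% interval -0.45 to 1.06) and 0.16. The differences of Lamb1 were 0.21 and 0.00, those of Lamc1 0.09 and 0.04, those of Col1a1 0.23 and 0.01, those of Sparc 0.32 and 0.38, those of Thbs1 0.32 and 0.12, and those of Pdgfrb -0.28 and 0.17.

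**Figure D5:**
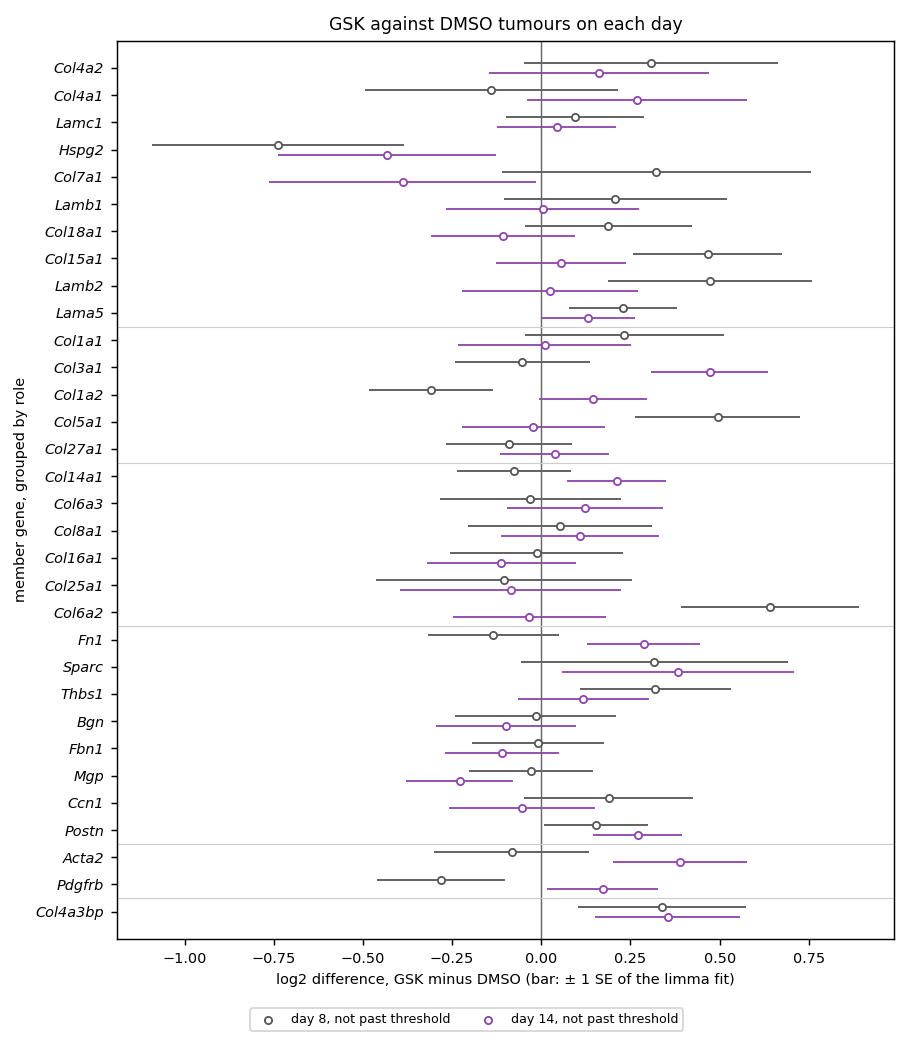
Log2 difference between GSK and DMSO tumours on day 8 (grey) and day 14 (purple) for 32 of the 33 genes, grouped by role, with bars of ± 1 SE of the limma fit and open points because none had an adjusted p under 0.05. Values shown lie between -0.74 and 0.64 on day 8 and between -0.43 and 0.47 on day 14.

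Genes that make, bind or accompany this matrix were followed in 4 lists with 71 tested genes. Between the pre-treatments 8 of the 71 passed on day 14 and 8 in the mean of both days, 11.3% each, which is near or below the 10.8% and 14.5% of all tested genes. Macrophage markers moved in the same comparison: on day 14 Cd68, Tyrobp, Lyz2 and Adgre1 were higher in GSK, by 1.04, 0.96, 0.81 and 0.70, and C1qa and Itgam lower, at -0.85 and -0.59, while the mean of the 12 markers was 11.21 to 11.88 in DMSO and 11.71 to 11.98 in GSK, and their part in the list genes was not tested. Between the days 3 of the 71 were lower and 1 was higher in DMSO, against 0.522% and 0.303% of all tested genes. In GSK 6 were lower and 3 higher, against 3.95% and 3.05%. Of the enzymes and carriers that process collagen 18 of 31 were tested. On day 14 Ppib, a prolyl isomerase that folds procollagen, was higher in GSK by 0.69 and Mia3, which loads procollagen into transport vesicles, by 0.48, while P4ha2, a prolyl hydroxylase chain, was lower by a difference of -0.51. Between the days the procollagen protease Bmp1 and its enhancer Pcolce fell in GSK by 0.57 and 0.79, and the collagen chaperone Fkbp10 fell in DMSO by 0.69. Over both days 2 of 18 were higher in GSK, Ppib by 0.60 and Plod3, a lysyl hydroxylase, by 0.33.

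Of the receptors for matrix 21 of 28 were tested. Between the days in GSK the integrin chains Itga3, which pairs in a laminin receptor, and Itgb3 fell by 1.07 and 1.04, and dystroglycan (Dag1), which binds laminin, and the collagen receptor Lair1 rose by 0.81 and 0.54. In DMSO 0 of 21 passed in limma, with 6 at an unadjusted p under 0.05, against 1828 of all 11886 tested genes. On day 14 Dag1 was the 1 receptor higher in GSK than in DMSO, by 0.80, and over both days the thrombospondin receptor Cd47 was, by 0.35.

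Among further matrix proteins 18 of 35 were tested. Tgfbi, a collagen-binding protein induced by TGF-beta, lay between 11.68 and 12.58 in DMSO and stood at 12.94, 12.87, 12.90 and 12.93 in GSK on day 14, higher by 0.78. Emilin1, a glycoprotein of elastic fibres, was higher by 1.00. Over both days these and Emilin2 were higher in GSK, by 0.71, 0.55 and 0.46. Elastin (Eln) fell with time by 1.00 in DMSO and 0.75 in GSK, and Sparcl1, a relative of Sparc, by 1.39 in GSK.

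Of 20 actin, serum response factor and YAP-related genes 14 were tested. Axl, a receptor tyrosine kinase and YAP target, rose with time by 1.11 in DMSO and 0.90 in GSK, and vinculin (Vcl) fell by 0.94 in DMSO. On day 14 Lats2, a kinase that restrains YAP, was higher in GSK by 0.76 and filamin A (Flna) was lower by a difference of -0.66. Over both days Axl was higher in GSK, by 0.48, and Flna lower, at -0.46. On day 8 none of the 4 lists had a gene past the threshold between the pre-treatments. At an unadjusted p under 0.05 in limma there were 3 of 18, 2 of 21, 2 of 18 and 4 of 14 genes. Among all 11886 tested genes there were 1939.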

How the data were processed

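Bulk RNA of F4/80-positive fractions was measured in 14 libraries of 4 groups. The authors deposited 1 table of log2-scale values per gene. The submitters' processing notes list the builds mm10 and GRCh38 and the tools RSEM 1.2.29, DESeq2 1.12.4 and Bowtie2, without their roles. The transformation is not given in the sources used here, and one that shrinks low values would understate changes of low genes.

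Symbols and exon lengths came from GENCODE M21 (24470 of 24556 rows matched) and promoters from RefSeq. The 4 groups were modelled by their means in limma 3.58.1 (R 4.3.3, trended empirical Bayes) over the 11886 genes with an unlogged value of at least 10 in at least 3 libraries. Tests were two-sided, with Benjamini-Hochberg adjustment over those genes and a threshold of 0.05. The fit was tested on simulated data. Values of 1 of the 33 genes are not reported here, though it is part of the counts and medians.

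Members and lists were chosen with earlier results of these data known. Named were genes past the threshold (the 8 largest each way where over 12 passed), the 4 smallest p where fewer passed, the 10 highest per kilobase, 12 genes always given, and up to 4 passing genes of each pathway list. Ccn1, Bgn and the genes near or under the minimum were added after their values were seen. Alternatives changed the pseudocount, filter, normalisation, trend, replicate block, samples, covariate and each library, and the covariate, the ribosomal RNA settings and the omission of Col4a3bp were chosen after seeing the data.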

Additional observations from a re-analysis of the deposited data

Results flagged for a closer look

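Pdgfrb in DMSO day 14 library 4 stood at 3.81, apart from the other 3 libraries of its group, which lay between 4.15 and 4.21. Of 66 groups of 4 libraries examined over the 33 genes, this was the 1 with a library that far from the rest, where chance gives about 1 in 20. The groups of 3 were not examined.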

How the results depend on the processing

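Counts of genes past the threshold between the days depended on the setting. In DMSO the count of 4 became 1 with no filter, 0 with the epithelium covariate, 0 in Gm42418-high libraries, and 0 to 6 with 1 library left out. The AY036118-high libraries held only 1 of DMSO day 8. In GSK the count of 13 became 3 with no filter, 0 with the epithelium covariate, 6 with the ribosomal RNA term, 3 in AY036118-high libraries, and 2 to 17 with 1 library left out. The cause was not tested, except that no filter adds genes to the adjustment and the restricted fits have fewer samples. With the epithelium covariate the changes in GSK turned to 0.18 for Col7a1, 0.30 for Ccn1, 0.44 for Hspg2, 0.34 for Col4a1, 0.35 for Col4a2 and 0.23 for Acta2. That covariate did not overlap between the days, so that fit cannot separate it from day. Between the pre-treatments the count of 0 became 3 on day 14 with only the compared groups and 1 with the epithelium covariate, and in the mean of both days 2 with that covariate and 0 to 1 with 1 library left out. Col6a2 on day 8 turned to -0.066 in AY036118-high libraries. A pseudocount of 10, a minimum of 50 (15 of the 33 genes tested), quantile normalisation, limma without the trend and leaving out Col4a3bp kept both day counts within 1.5 times. Col14a1 in GSK kept its call in 23 of 24 settings, and Acta2 in DMSO in 21 of 25. The other calls of the genes lower in both pre-treatments held less often. In DMSO Col4a1 and Hspg2 kept theirs in 11 of 25 settings each and Col6a3 in 6 of 24. In GSK Col4a1 did so in 11 of 24, Hspg2 in 14 of 24, Col6a3 in 14 of 23 and Acta2 in 8 of 24. As a replicate block the library numbers gave 3 in DMSO and 7 in GSK. Same-numbered libraries deviated together in 5 of 19 pairs and differently numbered ones in 14 of 54 (correlation over 0.1). So the numbers are not shown to pair the samples, and pairing is not excluded. Depth is unknown, so the counting error of low genes such as Postn and Ccn1 cannot be given.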
